A study of Mus musculus with 4 samples.

Results

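The chemokine receptor genes Ccr2, Ccr7, Ccr9, Cxcr3, Cxcr4, Cxcr5, Cxcr6, Cx3cr1 and Xcr1 were compared between splenic CD8 T cells that carry Ly49 receptors and those that do not. The members were all probe sets, the groups of short probes by which an Affymetrix array reads 1 transcript, whose platform gene symbol was 1 of these 9 names. They came to 18 of the 45101 probe sets in the table, and to 9 of 18193 genes when the brightest probe set stood for each gene. The Ly49+ group was 2 arrays of cells sorted as CD44+CD122+Ly49+, named CD8+ Treg in the labels. The Ly49- group was 2 arrays of cells sorted as CD44+CD122+Ly49-, named conventional memory cells. All cells came from spleens of wild-type B6 mice with no treatment listed. The labels give no age. They name no animals or sorts behind the replicates, and p-values therefore cover the spread between these arrays alone, part of which may be technical.

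Chemokine receptors are G protein-coupled receptors that steer leukocytes along gradients of small secreted proteins, the chemokines. Ligand binding releases Gi proteins, which act through phosphoinositide 3-kinase gamma and the GTPases Rac and Rap1 on the cytoskeleton and on integrins. G protein-coupled receptor kinases, arrestins and RGS proteins then end the signal. On CD8 T cells, Ccr7 marks access to the T-cell zone, whereas Cxcr3, Cxcr6, Ccr2 and Cx3cr1 are known from memory and effector cells that enter inflamed tissue.

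Array medians lay between 188.5 and 190.4 intensity units, and the log2 values of any pair of arrays correlated at 0.996 to 0.998 across probe sets. Genes of the T-cell receptor complex, Cd8a, Cd8b1, Cd44 and Il2rb (CD122) read 5561 to 24234 on all 4 arrays, and 0 of these 8 genes passed the limma test described next (2 at an unadjusted p under 0.05). On Ly49- replicate 1 the older probe set for the 3' end of the spiked bioB control read 702, against 2750 to 3084 on the other arrays, while the newer one read 2833 to 3111 on all 4. Unspiked bacterial controls read at most 70.3, which served as the mark below which no size is given. Probes differ in brightness, so intensities of different genes give no order of abundance.

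Among the 9 receptors, Xcr1 and Ccr2 were higher in Ly49+ cells, Cx3cr1 was lower, and 6 did not pass the test (limma on log2(intensity + 16), threshold an adjusted p of 0.05 over all genes). That is 3 of 9, against 4.0% of all genes, with 1.93% called higher and 2.07% called lower. The median log2 fold change was -0.03 over the 9 receptors and -0.04 over all genes. Groups did not overlap for 6 of the 9, 3 with Ly49+ above and 3 with Ly49+ below, where 48.4% of all genes had no overlap, 13.2% with Ly49+ above and 35.2% with Ly49+ below. Xcr1 and Cx3cr1 were read near the controls and Ccr2 far above them. Limma fits without Ly49- replicate 1 or without Ly49- replicate 2 hold a lone Ly49- array. In them far fewer genes at large passed, and Xcr1, Cx3cr1 and Ccr2 no longer did. Their log2 fold changes in these fits were 0.91 to 1 for Xcr1, -0.83 to -0.79 for Cx3cr1 and 0.27 to 0.33 for Ccr2.

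**Figure D1:**
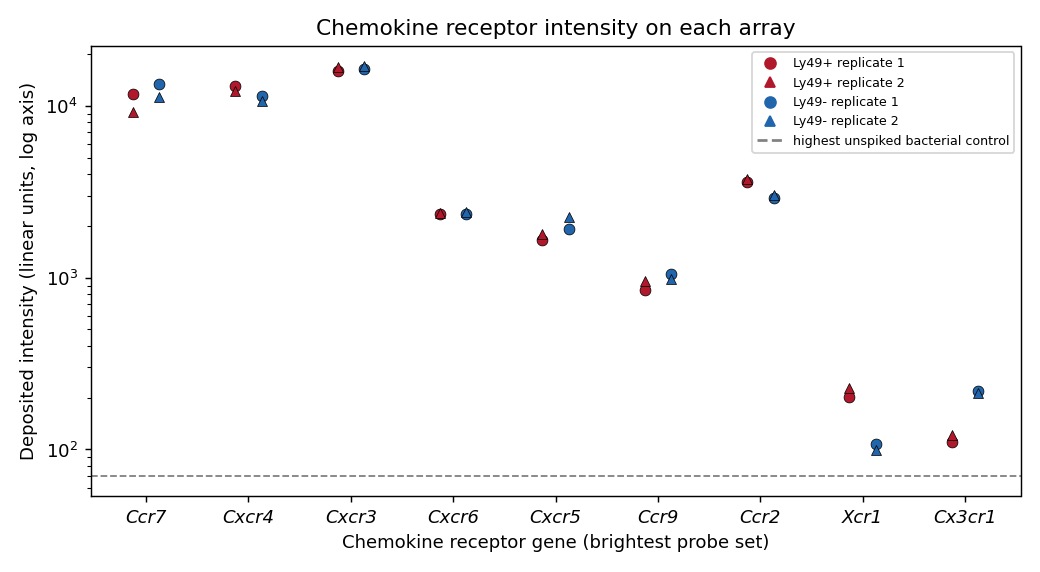
Deposited intensity (log axis) of the brightest probe set of each of the 9 chemokine receptor genes on the 2 Ly49+ arrays (red) and 2 Ly49- arrays (blue), with the highest unspiked bacterial control (70.3) as a dashed line. Both Xcr1 points of Ly49+ cells (203 and 228) lie above those of Ly49- cells (108 and 99.5), Cx3cr1 shows the opposite order, and Cxcr3 and Cxcr6 overlap.

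Xcr1 encodes the receptor for the chemokine Xcl1 and is best known from cross-presenting dendritic cells. Its probe set read 203 and 228 on the Ly49+ arrays and 108 and 99.5 on the Ly49- arrays. Both Ly49+ arrays were above both Ly49- arrays. The mean was 216 ± 17.7 against 104 ± 5.67 (SD, n = 2 each), a 1.94-fold difference (log2 fold change 0.95 ± 0.12 SE, 95% interval 0.69 to 1.22, limma adjusted p = 0.0033). These readings were above the unspiked controls on all 4 arrays. They also lay within the range of 15 measured genes of other tissues, such as Pomc (334 to 404) and Ins2 (151 to 177), whose readings ran from 13.1 to 404 with a median of 72.5. The adjusted p was 0.057 without Ly49- replicate 1 and 0.072 without Ly49- replicate 2.

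On the same arrays 13 of 16 myeloid markers and 2 of 9 dendritic-cell markers rose. Of 9 measured dendritic-cell markers, Cadm1 (log2 fold change 1.08) and Wdfy4 (0.90), both known from the dendritic cells that carry Xcr1, rose. In limma 7 of the 9 had an unadjusted p under 0.05, as had 3284 of all 18193 genes. The list median was 0.24, and 7 did not pass. Among these, Zbtb46 (0.43, limma adjusted p = 0.084), Flt3 (0.40, 0.085), Batf3 (0.24, 0.26) and Snx22 (0.10, 0.62) were above 0. Itgax was below 0 (-0.17, adjusted p = 0.27). The summed intensity of that list was 6555 to 6905 on the Ly49+ arrays and 4845 to 4906 on the Ly49- arrays, and 2 of the 9, Cd209a and Clec10a, read below the controls on every array. Of 16 measured myeloid markers 13 rose, among them the splenic macrophage factor Spic (1.26), 2 fell and 1 did not pass, with a median of 0.68. Their summed intensity was 23759 to 26105 against 15722 to 15840, and Itgam alone read below the controls on all 4 arrays. The part of such cells in the Xcr1 difference was not tested. In bulk samples, fewer cells of a type and less RNA per cell cannot be told apart.

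Cx3cr1, the fractalkine receptor found on monocytes, NK cells and cytotoxic effector T cells, moved the other way. Its brighter probe set read 111 and 122 on the Ly49+ arrays and 219 and 213 on the Ly49- arrays, so both Ly49+ arrays were below both Ly49- arrays. The mean was 116 ± 8.13 against 216 ± 4.19 (SD, n = 2 each), 1.76-fold lower (log2 fold change -0.81 ± 0.11 SE, 95% interval -1.07 to -0.56, limma adjusted p = 0.0055). Its second probe set, which the platform lists under the same source sequence, read 41.9, 53.5, 40.9 and 53.2, below the bacterial controls on every array, and gave no difference that can be sized. With the mean of both probe sets Cx3cr1 differed by -0.40 and did not pass (adjusted p = 0.093). It also missed the threshold without Ly49- replicate 1 (0.081) and without Ly49- replicate 2 (0.080). Like Xcr1, it was read within the range of the genes of other tissues. The myeloid markers S100a8 (-0.49) and S100a9 (-0.53) fell on these arrays while the other 13 called markers of that list rose.

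Ccr2, the receptor for Ccl2 that brings monocytes and effector T cells to inflamed tissue, was modestly higher in Ly49+ cells. Its brightest probe set read 3595 and 3768 against 2923 and 3040, with no overlap. The mean was 3682 ± 122 against 2981 ± 83.2 (SD, n = 2 each), 1.23-fold higher (log2 fold change 0.30 ± 0.05 SE, 95% interval 0.18 to 0.42, limma adjusted p = 0.017). Its other 3 probe sets gave 0.49, 0.06 and 0.22, and Ly49+ arrays were above Ly49- arrays in 3 of all 4. Over all probe sets 44.9% had no overlap in either direction. The share with Ly49+ above was 13.2% over genes and was not taken over probe sets. When each of 45037 probe sets was tested on its own, 0 of the 4 passed limma's test (2 at an unadjusted p under 0.05), with adjusted p of 0.071 and 0.072 for the brightest and for the one at 0.49. With the mean of the 4 probe sets the difference was 0.27 (adjusted p = 0.092), and without a trend of the spread on the level the adjusted p was 0.098. Ccr2 missed the threshold whichever array was left out, with adjusted p of 0.080 and 0.17 for Ly49+ replicates 1 and 2 and of 0.12 and 0.094 for Ly49- replicates 1 and 2. Ccr2 is also a gene of monocytes, for which no separate marker list was used. The general myeloid list moved as given for Xcr1. On it 13 of 16 markers rose, Spic (1.26) among them, and S100a8 (-0.49) and S100a9 (-0.53) fell. The part of monocytes in the Ccr2 difference was not tested.

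**Figure D2:**
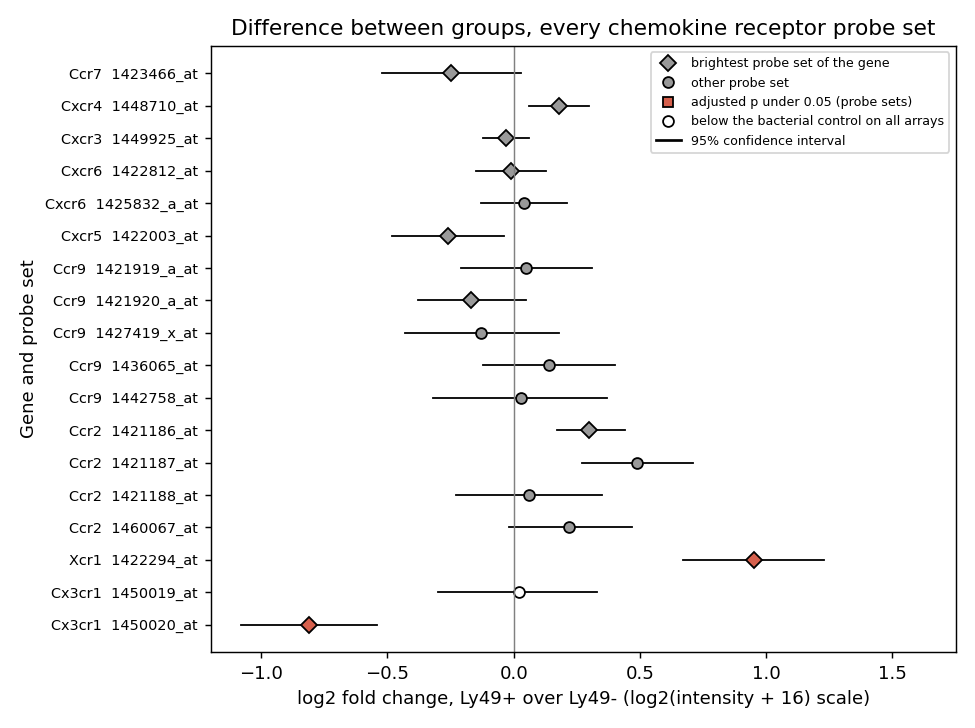
Log2 fold change (Ly49+ over Ly49-) of all 18 chemokine receptor probe sets, each tested on its own, with the 95% confidence interval as a line. Diamonds are the brightest probe set of a gene, red marks an adjusted p under 0.05 over all probe sets, and the open circle is the Cx3cr1 probe set below the bacterial controls. Xcr1 (0.95) and Cx3cr1 (-0.81) stand away from 0, and the 4 Ccr2 probe sets all lie above 0, at 0.06 to 0.49.

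By probe set, 2 of the 18 passed, the Xcr1 one (adjusted p = 0.020) and the brighter Cx3cr1 one (0.027), against 1.19% of all probe sets. Genes with several probe sets differed in how well these matched. The 5 probe sets of Ccr9 ran from -0.17 to 0.14 and the 2 of Cxcr6 from -0.01 to 0.04, with 0 called by limma and 0 at an unadjusted p under 0.05. In limma fits that left out any 1 of the 4 arrays, the Xcr1 and Cx3cr1 probe sets no longer passed. Such fits hold a lone array in 1 group, and the share of all probe sets passing in them was not taken.

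The start regions of the 3 called receptors are shown because their genes differed between the groups and the series title names Helios, a zinc finger protein of the Ikaros family. Each line is 300 bases of RefSeq sequence (GRCm38.p6), 250 before to 50 after the annotated start, written along the gene's own strand. Capitals mark GGGAA, the core letters bound by Ikaros family proteins, on either strand, so that TTCCC is a match on the other strand.
Xcr1, chr9:123861980-123862279, - strand: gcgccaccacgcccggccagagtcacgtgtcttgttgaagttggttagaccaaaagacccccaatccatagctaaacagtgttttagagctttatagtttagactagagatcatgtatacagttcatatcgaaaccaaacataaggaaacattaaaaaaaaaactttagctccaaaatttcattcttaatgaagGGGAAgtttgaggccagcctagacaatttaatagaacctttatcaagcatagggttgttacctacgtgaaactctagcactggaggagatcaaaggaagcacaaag
Cx3cr1, chr9:120068247-120068546, - strand: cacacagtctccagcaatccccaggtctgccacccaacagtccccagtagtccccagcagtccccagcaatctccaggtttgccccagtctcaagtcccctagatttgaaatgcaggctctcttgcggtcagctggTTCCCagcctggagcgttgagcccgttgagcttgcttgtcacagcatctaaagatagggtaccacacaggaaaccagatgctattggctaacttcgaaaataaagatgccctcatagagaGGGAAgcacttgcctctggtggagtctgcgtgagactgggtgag
Ccr2, chr9:124101933-124102232, + strand: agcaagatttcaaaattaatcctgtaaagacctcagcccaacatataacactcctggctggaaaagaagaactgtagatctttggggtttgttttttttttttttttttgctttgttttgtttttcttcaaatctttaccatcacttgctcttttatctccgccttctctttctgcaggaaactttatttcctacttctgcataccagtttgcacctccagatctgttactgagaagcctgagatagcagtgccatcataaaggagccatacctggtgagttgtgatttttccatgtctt
The letters occurred once in the Xcr1 window, on the forward strand, and on each strand once in the Cx3cr1 window. None was found in the Ccr2 window. Of 32851 windows of the same length, 62.7% held at least 1 match. A window sequence was available for 7 of the 9 receptors, all but Ccr7 and Cxcr5. The windows of Xcr1, Cx3cr1, Cxcr4 and Cxcr3 held the letters, and those of Ccr9, Cxcr6 and Ccr2 did not. A match is a run of letters and not a measured binding site.

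Receptors that guide T cells within lymphoid organs did not pass the test. Ccr7, the receptor for entry into lymph nodes and the T-cell zone of the spleen, read 11689 and 9182 on the Ly49+ arrays and 13332 and 11330 on the Ly49- arrays. The groups overlapped, since Ly49+ replicate 1 was above Ly49- replicate 2. The difference was -0.25 ± 0.11 SE on the log2 scale (95% interval -0.49 to 0.00, limma adjusted p = 0.27). Among the 5 measured genes of the naive and memory list, which besides Ccr7 holds Lef1, S1pr1, Klf2 and Il7r, 0 passed limma's test (1, Ccr7, at an unadjusted p under 0.05), with log2 fold changes from -0.25 to 0.07.

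Cxcr5 leads cells toward Cxcl13 in B-cell follicles. It read 1665 and 1806 against 1913 and 2261, with both Ly49+ arrays lower. The difference of -0.26 ± 0.09 SE (95% interval -0.46 to -0.06) had a limma adjusted p of 0.15. Cxcr5 is also a B-cell gene. Of 11 measured B-cell markers Cd22 rose (1.05), Cd79b fell (-0.28) and 9 did not pass, with a median of 0.11. In limma 5 of the 11 had an unadjusted p under 0.05, as had 3284 of all 18193 genes. Of these 5 markers Cd79b alone was below 0. The summed intensity of the list was 19022 to 20354 on Ly49+ and 19057 to 20177 on Ly49- arrays. Most of that sum was Ighm (13508 to 15442), so it says little about the dimmer markers. Pax5, Cr2 and Fcer2a read below the controls throughout. The part of B cells in the Cxcr5 values was not tested.

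Cxcr4, the receptor for Cxcl12 that holds leukocytes in bone marrow and other stroma, read 13001 and 12157 against 11477 and 10721. Both Ly49+ arrays were higher, by 0.18 ± 0.05 SE on the log2 scale (95% interval 0.07 to 0.29, limma adjusted p = 0.084). After quantile normalization of the same arrays the difference was 0.19 and the adjusted p 0.048.

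Cxcr3, the receptor for Cxcl9, Cxcl10 and Cxcl11 on memory CD8 T cells, was bright and nearly equal in both groups. It read 15942 and 16720 against 16384 and 16962, and the groups overlapped. The difference was -0.03 ± 0.04 SE (95% interval -0.12 to 0.06, limma adjusted p = 0.75), so the interval holds ratios of Ly49+ to Ly49- from 0.922 to 1.04. Cxcr6, the receptor for Cxcl16 known from tissue-resident and liver T cells, read 2358 and 2370 against 2348 and 2423. Its difference of -0.01 ± 0.06 SE (95% interval -0.14 to 0.11, limma adjusted p = 0.94) allows ratios from 0.909 to 1.08. Its sign turned under quantile normalization (0.02).

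Ccr9, the receptor for Ccl25 that directs lymphocytes to the small intestine, read 853 and 954 against 1053 and 980 with its brightest probe set. The difference of -0.17 ± 0.09 SE (95% interval -0.36 to 0.03) had a limma adjusted p of 0.35. Its other 4 probe sets read 149 to 333 on all arrays and gave differences of both signs. Ccr9 is also known from plasmacytoid dendritic cells, for which 0 of 8 measured markers passed limma's test (2 at an unadjusted p under 0.05), with a median of 0.07 and a summed intensity of 4330 to 4493 against 4391 to 4511. None of those 8 read below the controls on every array.

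Of 16 other measured receptors of the family and its relatives, 2 rose, none fell and 14 did not pass. The median was -0.02, and 7 of the 16 read below the controls on all 4 arrays. Ccr3, the eotaxin receptor of eosinophils, read 370 and 400 on the Ly49+ arrays and 193 and 182 on the Ly49- arrays (1.97-fold higher, log2 fold change 0.98 ± 0.11 SE, limma adjusted p = 0.0022). Gpr15, a chemoattractant receptor that directs T cells to the colon, read 1563 and 1730 against 1032 and 1077 (1.55-fold higher, log2 fold change 0.63 ± 0.08 SE, limma adjusted p = 0.0032). The groups did not overlap for either gene. The Ccr3 readings lay within the range of the 15 measured genes of other tissues (13.1 to 404). On the same arrays 13 of 16 myeloid markers rose and 2 fell, and the part of such cells in the Ccr3 difference was not tested. The adjusted p was 0.057 for Ccr3 without Ly49- replicate 2, and for Gpr15 0.063 without Ly49- replicate 1 and 0.058 without Ly49- replicate 2. Ackr3, Ackr2 and Ccr10, next by p, had limma adjusted p of 0.098, 0.21 and 0.37, and Ackr3 read below the controls on all 4 arrays.

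Xcr1, Ccr2 and Ccr3 lie in 1 cluster of receptor genes on mouse chromosome 9. In the RefSeq order (GRCm38.p6, used for order alone) the 9 protein-coding genes from Lztfl1 to Ccr2 are Lztfl1, Ccr9, Fyco1, Cxcr6, Xcr1, Ccr1, Ccr1l1, Ccr3 and Ccr2, and all 9 were measured. The 3 called genes were not all side by side, since Ccr1 and Ccr1l1 lie between Xcr1 and Ccr3, and both read below the controls on all 4 arrays. The non-receptor neighbours Lztfl1 (-0.20, adjusted p = 0.16) and Fyco1 (-0.04, 0.73) did not pass. Slc6a20a, which lies before Lztfl1, read below the controls on all 4 arrays. Ccrl2, Ltf and Rtp3 were on the same list but lie elsewhere on the chromosome in RefSeq. Ccrl2 did not pass (0.34, adjusted p = 0.45), and Ltf and Rtp3 read below the controls throughout.

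The genes whose profile over the 4 arrays was nearest to that of Xcr1 were Ccr3, Klrc1 and Dnase1l3, with distances of 0.043, 0.053 and 0.058 in mean-centred log2 units among 12688 genes above the controls. Klrc1, which encodes the inhibitory receptor NKG2A, read 4900 and 5471 against 2786 and 2694. Dnase1l3, a secreted nuclease, read 2133 and 2344 against 1157 and 1142. With 4 arrays this likeness is a description.

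**Figure D3:**
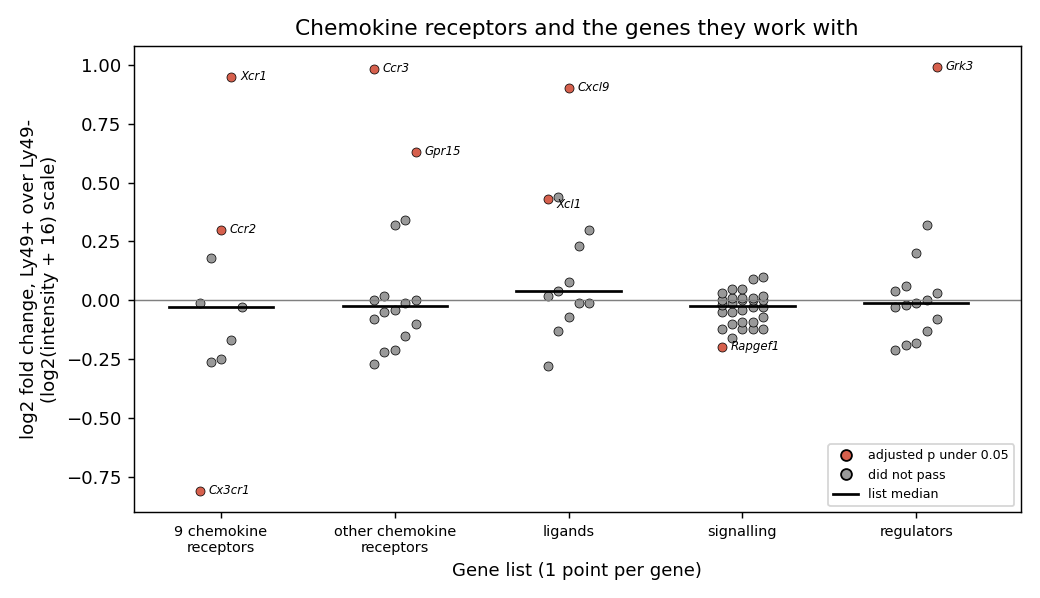
Log2 fold change (Ly49+ over Ly49-) of each measured gene of 5 lists, with red for an adjusted p under 0.05, grey for genes that did not pass and a bar for the list median. Signalling genes lie within -0.20 to 0.10, while single genes of the other lists reach about 0.9 or more, among them Xcr1 (0.95), Ccr3 (0.98), Cxcl9 (0.90) and Grk3 (0.99).

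Of 13 measured ligands of the 9 receptors, 2 rose, none fell and 11 did not pass, with a median of 0.04, and 5 read below the controls on all arrays. Xcl1, the ligand of Xcr1 and a product of activated CD8 T and NK cells, read 11478 and 9942 on the Ly49+ arrays and 8578 and 7278 on the Ly49- arrays. It was 1.35-fold higher with no overlap (log2 fold change 0.43 ± 0.08 SE, limma adjusted p = 0.024). Leaving out Ly49+ replicate 1 gave it an adjusted p of 0.16, and leaving out Ly49- replicate 1 or 2 gave 0.067 and 0.22. It had 0.15 without a trend or with a robust spread, and 0.052 when its probe sets were averaged. Cxcl9, a ligand of Cxcr3 made mostly by macrophages and dendritic cells in response to interferon gamma, read 508 and 553 against 283 and 270 (1.87-fold higher, log2 fold change 0.90 ± 0.10 SE, limma adjusted p = 0.0024). Its adjusted p was 0.058 without Ly49- replicate 2. Cxcl9 rose on the arrays on which 13 of 16 myeloid markers rose, and their part in it was not tested. Ccl25, Ccl2 and Cxcl16 had adjusted p of 0.15, 0.27 and 0.29.

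Genes of the shared signalling machinery passed about as often as genes at large. Of 30 genes for G protein subunits, phosphoinositide 3-kinase gamma, Dock and Rac proteins and the Rap1 pathway, 1 fell, none rose and 29 did not pass, so that 1 of 30 was called where the share over all genes was 4.0%. The median was -0.02 and the range -0.20 to 0.10. Rapgef1, an exchange factor that activates Rap1, read 6255 and 6564 against 7543 and 7232, without overlap (log2 fold change -0.20 ± 0.05 SE, limma adjusted p = 0.045). It did not pass after quantile normalization (0.061) or when any 1 array was left out (0.31 and 0.14 for Ly49+ replicates 1 and 2, 0.17 and 0.14 for Ly49- replicates 1 and 2). Rasgrp2 (-0.16), Dock8 (-0.12) and Gnb1 (0.10) had adjusted p of 0.092, 0.15 and 0.16.

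Among 15 measured genes that end or modify receptor signals, Grk3 rose, none fell and 14 did not pass, with a median of -0.01. Grk3, a kinase that phosphorylates activated G protein-coupled receptors, read 634 and 651 on the Ly49+ arrays and 302 and 329 on the Ly49- arrays. The groups did not overlap, and the difference was 1.99-fold (log2 fold change 0.99 ± 0.10 SE, limma adjusted p = 0.0012). Grk3 passed under every alternative that kept all 4 arrays, and over all 13 its log2 fold change ran from 0.49 to 1.05. The size depended on the probe set, since the one used here is an _s_at probe set. Without _x_at and _s_at probe sets the log2 fold change was 0.49 (limma adjusted p = 0.047). Rgs14 (-0.18), Rgs2 (0.32) and Tpst1 (-0.19), a sulfotransferase that modifies chemokine receptors, had adjusted p of 0.15, 0.25 and 0.32.

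**Figure D4:**
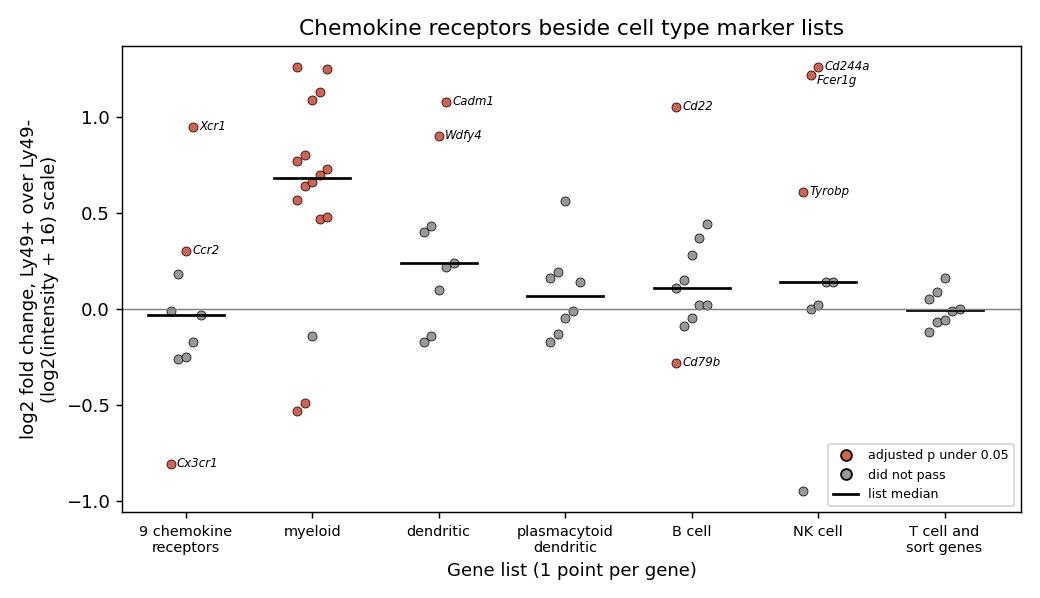
Log2 fold change (Ly49+ over Ly49-) of the 9 chemokine receptors beside marker lists of other cell types, with red for an adjusted p under 0.05 and a bar for the list median. The myeloid list has the highest median (0.68) with S100a8 and S100a9 below 0, the dendritic list follows (0.24), and the T-cell and sort genes lie between -0.12 and 0.16.

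NK cells also carry Ly49 and may express Cx3cr1, Cxcr3 and Xcl1. Of 8 measured NK-cell markers Fcer1g (1.22), Cd244a (1.26) and Tyrobp (0.61) rose and 5 did not pass. Those 5 were Klrd1 (0.14), Eomes (0.14), Nkg7 (0.02), Ncr1 and Gzma. Gzma, which encodes granzyme A, differed by -0.95 without overlap (limma adjusted p = 0.051). In limma 6 of the 8 had an unadjusted p under 0.05, as had 3284 of all 18193 genes, and of these 6 Gzma alone was below 0. The list had a median of 0.14 and a summed intensity of 60057 to 60553 against 57081 to 57555. Most of that sum was Nkg7 (24043 to 24621) and Klrd1 (16690 to 19573). Ncr1, a receptor of most NK cells, read below the controls on all 4 arrays. On the same arrays 13 of 16 myeloid markers rose, and the part of NK or myeloid cells in these values was not tested. Of 4 markers of CD4 T cells, 0 passed limma's test (1 at an unadjusted p under 0.05), with a median of -0.06 and a summed intensity of 414 to 446 against 471 to 499, and Cd40lg read below the controls throughout.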

How the data were processed

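Total RNA of 2 Ly49+ and 2 Ly49- samples was biotin-labelled and hybridised to Affymetrix mouse arrays, per the labels' protocols. The authors deposited 1 intensity per probe set and array, taken as linear because no value is 0 or negative and they span several orders of magnitude. The software and normalization are not given in the sources used here. Depth is fixed by the number of arrays, which limits the precision. Of 45101 probe sets, 64 controls were left out. Symbols came from the platform annotation of 2016, updated through RefSeq gene IDs. Probe sets with 1 symbol numbered 34945, with several 932, and 9160 were not listed there. The probe set with the highest mean log2 value stood for each of 18193 genes, and all 45037 were also tested singly.

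Log2(intensity + 16) was tested with limma 3.58.1 in R 4.3.3 (tables read with the data.table package, version 1.17.8), with lmFit and eBayes with a trend, 2 residual and 6.70 prior degrees of freedom (5.05 for single probe sets), Benjamini-Hochberg adjustment and a threshold of 0.05. Fold changes refer to intensity plus the pseudocount, so those of dim genes are understated. The code was run on data simulated with independent noise of the spread that the fit itself had estimated. Such a run checks the code and cannot test how the fit behaves on these arrays. The members and lists were chosen with earlier results of these data known. Named were the 9 members, called genes of the family, ligand, signalling and regulator lists with up to 3 further ones by smallest p, the listed chromosome 9 neighbours, the 3 genes nearest to Xcr1, and markers beside results. Alternatives were quantile normalization, pseudocounts of 1 and 64, bright probe sets alone, averaging all probe sets of a gene, no _x_at or _s_at probe sets, no trend, a robust spread, a replicate block and leaving out each array, which assumes that the lone array left in a group varies as the other group does.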

Additional observations from a re-analysis of the deposited data

How the results depend on the processing

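With 2 arrays a group, the counts depended on single arrays. Over the fits that left out 1 array, 107 to 289 of all genes passed (728 with all arrays), 0 to 2 of the 9 receptors (3), 0 of their 18 probe sets (2), 0 to 2 of the other receptors (2), 0 to 2 ligands (2), 0 signalling genes (1, with 1 to 6 at an unadjusted p under 0.05) and 1 regulator (1). Without a trend of the spread 371 of all genes, 1 ligand and 0 signalling genes passed. A robust spread left 1 ligand. Averaging all probe sets of a gene, 1 receptor (Xcr1), 1 ligand and 0 signalling genes passed, and after quantile normalization 0 signalling genes. At an unadjusted p under 0.05 these fits held 2, 2 and 5 signalling genes. Xcr1 has 1 probe set, against 2 for Cx3cr1 and 4 for Ccr2, so averaging could not change the log2 fold change of Xcr1. The same holds for leaving out _x_at and _s_at probe sets. The log2 fold change of Cxcr6, which passed under no setting, turned to 0.02 after quantile normalization or with the mean of its probe sets and lay between -0.04 and 0.01 when 1 array was left out. Xcr1, Cx3cr1 and Ccr2 kept their sign under all 13 alternatives, with ranges of 0.74 to 1.05, -0.89 to -0.40 and 0.27 to 0.34, and adjusted p of 0.00011 to 0.072, 4e-04 to 0.093 and 0.0013 to 0.17. They passed in 11, 10 and 7 of the 13.

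The replicate numbers match between the groups, but no label says that they mark a shared animal or day. The differences between replicates 1 and 2 of the 2 groups correlated at 0.25 across probe sets. With the number as a replicate block, 1527 of all genes passed, 6 of the 9 receptors (3 higher, 3 lower), 6 of the 18 probe sets, 2 signalling genes and 3 regulators. Ccr7 (adjusted p = 0.0011), Cxcr4 (0.0068) and Cxcr5 (0.016) were the receptors that passed in addition. The cause of these changes was not tested.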

Other observations

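Among the receptors outside the 9, Gpr183, which guides lymphocytes by oxysterols, and Ackr4, a scavenger of Ccl19, Ccl21 and Ccl25, were read above the controls on all 4 arrays and did not pass the test. Gpr183 read 6198 and 6438 in Ly49+ cells against 6290 and 7086 in Ly49- cells (log2 fold change -0.08, 95% interval -0.21 to 0.06). Ackr4 read 1372 and 1430 against 1349 and 1456 (0.00, interval -0.16 to 0.16). Rgs1, a regulator that dampens chemokine receptor signals in lymphocytes, read 13057 and 7331 in Ly49+ cells against 11275 and 6453 in Ly49- cells, so it differed more between the replicate numbers than between the groups (log2 fold change between groups 0.20, limma adjusted p = 0.78).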
